A study of Rattus norvegicus with 12 samples.

Results

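Emp1, Emp2, Emp3 and Pmp22 are the 4 genes of the epithelial membrane protein and peripheral myelin protein 22 group, out of 28727 named genes in the count table. Emp1 was chosen by its measured values in these libraries, a glucose effect that differed between control and ChREBPβ cells, and its relatives were added by gene family. The values of Emp1 are therefore given as a description with no test, whereas Emp3 and Pmp22 were tested. Of the 4, Emp1, Emp3 and Pmp22 passed the filter on low counts and belonged to the 14669 genes tested, and Emp2 did not pass it.

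The RNA came from INS-1 832/13, an insulin-secreting line derived from a rat insulinoma. An adenovirus gave the cells either GFP, as a control, or ChREBPβ, the short isoform of the carbohydrate response element binding protein, a transcription factor that responds to glucose. They were kept in 2 or 11 mM glucose for 48 h, which gave 4 groups of 3 libraries: GFP 2 mM, GFP 11 mM, ChREBPβ 2 mM and ChREBPβ 11 mM. All groups shared the cell line and a viral transduction, and the ChREBPβ was overexpressed mouse protein. The study describes its values as averages over independent experiments, and the labels do not say whether replicates with the same letter were made together.

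Library totals ranged from 25754488 to 60531215 counts, and all 3 GFP 2 mM libraries and ChREBPβ 2 mM replicate a were at or below 32938546 counts. Txnip, a glucose-induced gene, was at 26.3 ± 1.7, 351 ± 18, 457 ± 13 and 666 ± 9.8 CPM (a count per library total, scaled by edgeR's TMM factors) in the order of groups above (mean ± SD, n = 3). The rat Mlxipl gene, which encodes ChREBP, was not raised by the virus (256 ± 19, 207 ± 5.3, 205 ± 6.6 and 188 ± 11 CPM). Counts of the rat gene therefore do not check the ChREBPβ label. Genes of β cells such as Ins1, Iapp and Pdx1 were detected in every group, with G6pc2 near 0.

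The proteins of this group are small, cross the membrane 4 times and belong to the same superfamily as the claudins, which seal the space between epithelial cells. PMP22 is best known as a component of the compact myelin made by Schwann cells, and a duplication of its gene causes a common inherited neuropathy. The EMP proteins are found at the surface of many epithelial and cultured cells, where they have been linked to adhesion, integrin trafficking, proliferation and cell death. ChREBP binds paired E-boxes in glucose-responsive genes.

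The DNA just upstream of each gene is shown because the members differed in level and direction in these cells. Below are the 250 bases before the start used by RefSeq for each gene (build GRCr8, whereas the counts were made on Rnor_6.0), with capitals marking an AP-1 site (TGAGTCA) or a GC box (GGGCGG) on either strand.
Emp1, chr4:169943980-169944229 (plus strand): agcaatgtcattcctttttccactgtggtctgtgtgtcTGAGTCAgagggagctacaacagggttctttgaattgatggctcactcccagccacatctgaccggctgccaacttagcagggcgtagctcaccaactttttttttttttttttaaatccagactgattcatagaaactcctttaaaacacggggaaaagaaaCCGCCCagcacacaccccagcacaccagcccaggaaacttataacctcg
Emp2, chr10:5866619-5866868 (plus strand): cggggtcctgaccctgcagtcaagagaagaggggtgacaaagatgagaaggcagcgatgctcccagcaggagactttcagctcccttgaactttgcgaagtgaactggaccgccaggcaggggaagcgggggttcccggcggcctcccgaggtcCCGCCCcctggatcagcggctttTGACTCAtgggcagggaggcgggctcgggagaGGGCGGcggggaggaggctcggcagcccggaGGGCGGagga
Emp3, chr1:105528266-105528515 (minus strand): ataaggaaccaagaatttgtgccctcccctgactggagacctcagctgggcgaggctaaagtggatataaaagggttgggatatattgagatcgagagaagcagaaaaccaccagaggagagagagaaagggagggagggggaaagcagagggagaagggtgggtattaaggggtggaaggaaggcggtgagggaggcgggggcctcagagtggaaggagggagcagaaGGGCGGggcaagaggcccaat
Pmp22, chr10:48294682-48294931 (plus strand): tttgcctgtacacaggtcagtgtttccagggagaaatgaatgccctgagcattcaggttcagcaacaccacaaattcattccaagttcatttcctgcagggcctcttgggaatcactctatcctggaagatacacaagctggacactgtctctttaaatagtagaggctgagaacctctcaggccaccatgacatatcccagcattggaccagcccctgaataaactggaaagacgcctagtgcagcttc
Emp1 held an AP-1 site 212 to 206 bases before the start and a GC box at 49 to 44 bases. Emp2 held an AP-1 site at 73 to 67 bases and 3 GC boxes, Emp3 a GC box at 21 to 16 bases, and Pmp22 neither motif. No E-box (CACGTG) and no cAMP response element (TGACGTCA) was found in any of the 4 windows. The E-box was searched only as these exact letters, here and in the similar genes below, so paired or variant forms were not looked for. Among 33469 windows of the same length, an E-box was in 5.59%, an AP-1 site in 4.05%, a cAMP response element in 1.59% and a GC box in 30.5%. These motifs do not overlap one another in letters, and were chosen after the windows were seen. A match or its absence describes letters in these windows and nothing further. The start used for Emp1 lies inside the span of its RefSeq gene, so other starts exist.

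Emp1 had the widest range of the members. In GFP 2 mM it stood at 0.404, 0.292 and 0.288 CPM in replicates a, b and c, from 11, 10 and 9 counts. In GFP 11 mM its level was 3.41, 3.56 and 4.55 CPM, in ChREBPβ 2 mM 16.1, 16 and 16.6 CPM, and in ChREBPβ 11 mM 15.6, 13.5 and 17.2 CPM. Every GFP 11 mM library lay above every GFP 2 mM library and below every ChREBPβ library, whereas the ChREBPβ groups overlapped. The share of all genes whose groups separate in such ways was not counted, for Emp1 or for the members below.

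**Figure D1:**
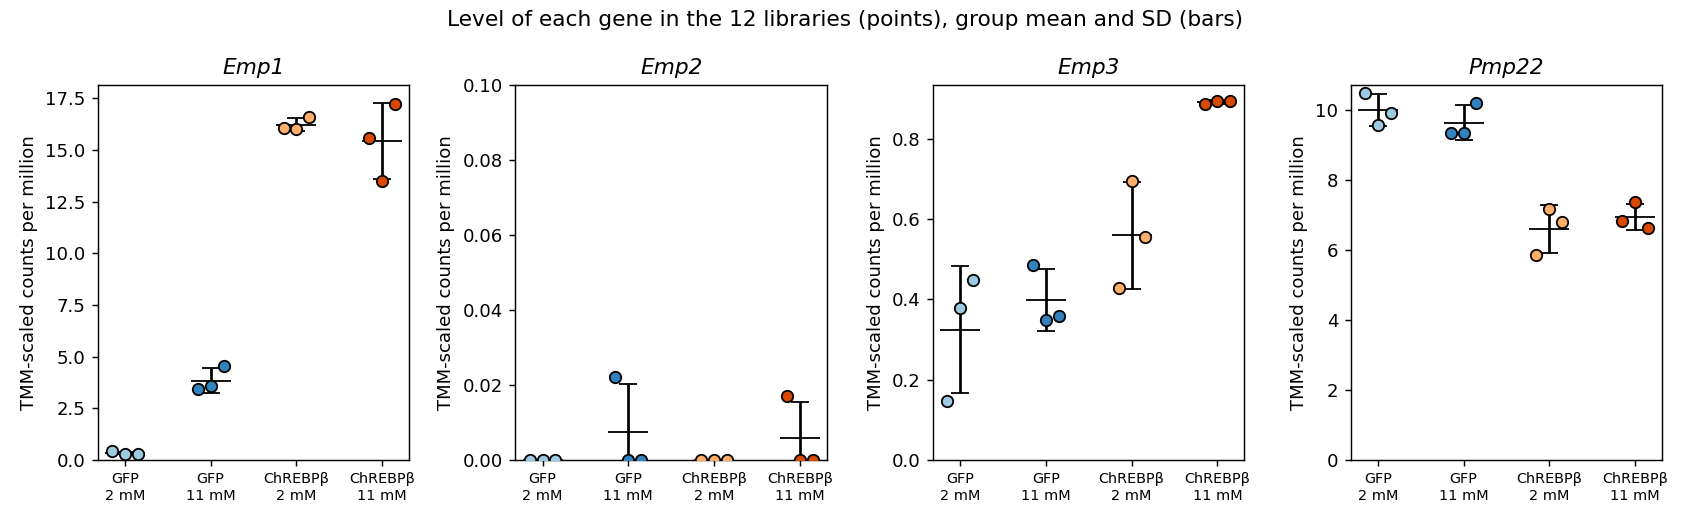
TMM-scaled CPM of the 4 genes (1 panel each, linear axis from 0, with its own scale) in the 4 groups, where points are the 3 libraries of a group and bars show the mean and SD. Emp1 steps from 0.328 to 3.84 to 16.2 CPM and stays there, Emp3 is below 1 CPM throughout, Pmp22 is lower in both ChREBPβ groups, and Emp2 has 2 counts in all.

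As group means, Emp1 was at 0.328 ± 0.066 CPM in GFP 2 mM, 3.84 ± 0.62 in GFP 11 mM, 16.2 ± 0.33 in ChREBPβ 2 mM and 15.4 ± 1.9 in ChREBPβ 11 mM (SD, n = 3). The lowest group rested on 30 counts in all, with an exact Poisson 95% interval of 0.218 to 0.462 CPM, which covers counting error only. In GFP cells Emp1 was higher at 11 than at 2 mM glucose by 3.56 ± 0.22 on the log2 scale (SE), or 11.8-fold with a 95% interval of 8.55 to 16.3. In ChREBPβ cells the same change in glucose gave -0.07 ± 0.09, with an interval of -0.27 to 0.12. With ChREBPβ Emp1 was higher by 5.64 ± 0.18 at 2 mM, or 49.7-fold (38.2 to 64.8), and by 2.00 ± 0.11 at 11 mM, or 4-fold (3.41 to 4.69). The errors and intervals of Emp1, here and below, make no allowance for its choice by values in these same libraries. They describe the spread of the libraries and are no test.

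The difference between both glucose effects, called the interaction, was -3.64 ± 0.25 for Emp1. Counted from the lowest of 14669 genes it ranked 12, while the glucose effect in GFP cells ranked 15 from the highest and the ChREBPβ effect 33 at 2 mM and 190 at 11 mM. Emp1 was chosen by this difference, so the ranks of the interaction and of the glucose effect within it follow from the choice. The same difference is also the ChREBPβ effect at 11 mM minus that at 2 mM. The ranks of the ChREBPβ effects are therefore not independent of the choice either. The level with ChREBPβ in low glucose exceeded that of control cells in high glucose, since Emp1 in ChREBPβ 2 mM lay 2.07 ± 0.11 above GFP 11 mM on the log2 scale. Between the most distant conditions, ChREBPβ 11 mM and GFP 2 mM, the difference was 5.56 ± 0.18. Comparisons that share a group of libraries are not independent of each other.

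**Figure D2:**
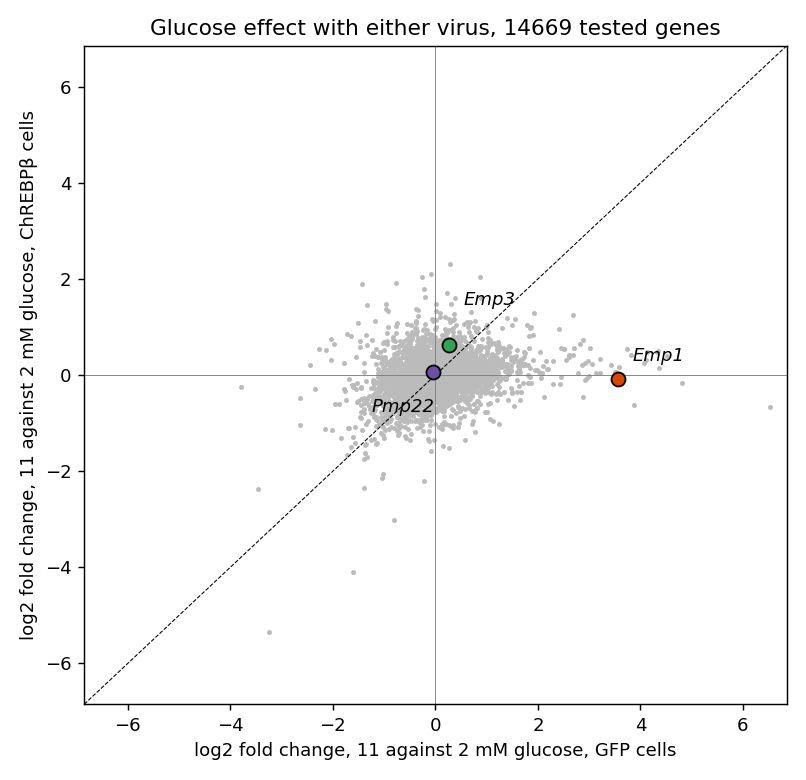
Log2 fold change from 2 to 11 mM glucose in ChREBPβ cells (y axis) against that in GFP cells (x axis) for 14669 tested genes (grey), with a dashed line of equal effects. Emp1 sits at 3.56 on the x axis and -0.07 on the y axis, whereas Pmp22 lies near 0 on both axes and Emp3 at 0.27 and 0.63.

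Emp3, a glycosylated relative found in several tumours, was low in all groups. Its levels were 0.147, 0.379 and 0.449 CPM in GFP 2 mM (4, 13 and 14 counts) and 0.487, 0.348 and 0.360 CPM in GFP 11 mM (22, 13 and 17 counts). With ChREBPβ they were 0.430, 0.695 and 0.555 CPM at 2 mM (12, 39 and 31 counts) and 0.887, 0.895 and 0.896 CPM at 11 mM (52, 51 and 49 counts). The 3 ChREBPβ 11 mM libraries lay above all 9 others, and the other neighbouring groups overlapped. The group means were 0.325 ± 0.158, 0.398 ± 0.077, 0.560 ± 0.133 and 0.892 ± 0.005 CPM (SD, n = 3). The small SD of the last group is below what counting 49 to 52 reads would give, so it is no measure of precision.

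Pmp22 was lower with ChREBPβ in both glucose concentrations. It was at 10.5, 9.56 and 9.90 CPM in GFP 2 mM and at 9.33, 9.34 and 10.2 CPM in GFP 11 mM. In ChREBPβ cells it was at 5.84, 7.16 and 6.80 CPM at 2 mM and at 6.82, 7.35 and 6.62 CPM at 11 mM. All 6 ChREBPβ libraries lay below all 6 GFP libraries, and glucose groups of the same virus overlapped. Group means were 9.98 ± 0.46, 9.62 ± 0.49, 6.60 ± 0.69 and 6.93 ± 0.38 CPM, with 163 or more counts in every library.

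Emp2, which has been linked to integrin surface display, was barely seen. It had 1 count in GFP 11 mM replicate a, 1 in ChREBPβ 11 mM replicate a and 0 in the other 10 libraries. A count of 0 allows up to 3 counts, which is 0.0526 to 0.110 CPM in a single library with 0 counts. Over the groups with 0 counts it is 0.0324 CPM in GFP 2 mM and 0.0214 CPM in ChREBPβ 2 mM. With 1 count, the exact Poisson interval used for Emp1 reached 0.0429 CPM in GFP 11 mM and 0.0327 CPM in ChREBPβ 11 mM. No change of Emp2 was detectable at this depth, and no fold is given.

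In the tested comparisons, a gene was called with an adjusted p under 0.05 and at least a 1.2-fold change (edgeR's quasi-likelihood test with Benjamini-Hochberg adjustment over all 14669 genes, from which every adjusted p here comes). With ChREBPβ at 2 mM, Pmp22 fell by 0.58 ± 0.09 on the log2 scale, or 1.49-fold (adjusted p = 2.85e-05). Emp3 was 0.79 ± 0.37 higher, but did not pass the test (adjusted p = 0.0714), and its interval was 0.02 to 1.55. Without GFP 2 mM replicate c it passed (1.07, adjusted p = 0.0434). One of the 2 testable relatives was thus called, where 21% of all genes were called higher and 23.2% lower.

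At 11 mM, both relatives passed the test in opposite directions. Emp3 rose by 1.15 ± 0.31 with ChREBPβ, or 2.22-fold (1.42 to 3.48, adjusted p = 0.00427). Pmp22 fell by 0.47 ± 0.09, or 1.39-fold (adjusted p = 0.000193). Here 14.3% of all genes were called higher and 19.1% lower. For ChREBPβ 11 mM against GFP 2 mM, where both virus and glucose differ, Emp3 rose by 1.42 ± 0.34 (adjusted p = 0.0012) and Pmp22 fell by 0.52 ± 0.09 (adjusted p = 5.36e-05), beside 23.7% of genes called higher and 26.8% lower. Between ChREBPβ 2 mM and GFP 11 mM, Pmp22 fell by 0.53 ± 0.09 (adjusted p = 0.000101) and Emp3 differed by 0.52 ± 0.33 (adjusted p = 0.223), beside 12.2% called higher and 14.8% lower.

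**Figure D3:**
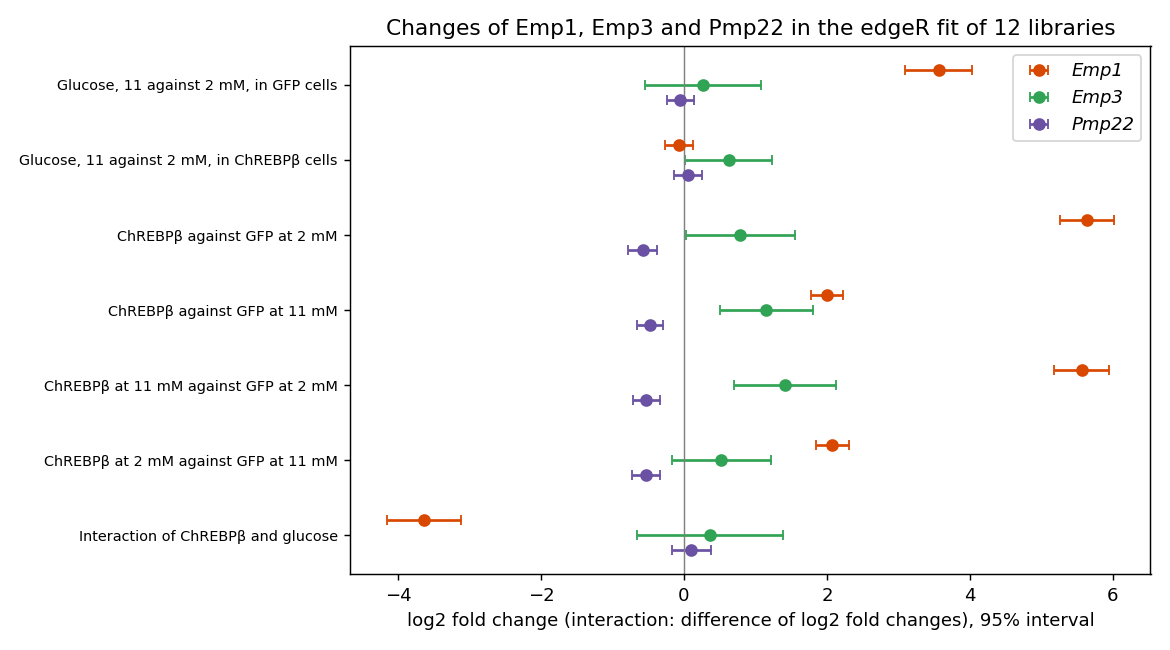
Log2 fold change with its 95% interval (x axis) of Emp1, Emp3 and Pmp22 in 6 comparisons between groups and in the interaction, which is a difference of log2 fold changes (y axis). Pmp22 lies between -0.58 and -0.47 in all 4 comparisons of ChREBPβ with GFP, Emp3 lies above 0 with wide intervals, and Emp1 is near 0 only for glucose in ChREBPβ cells. The intervals of Emp1 make no allowance for its choice on these data.

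The split of all calls depended on the scaling. When counts were scaled by library totals and not by TMM factors, the median of all genes in ChREBPβ 11 mM against GFP 2 mM went from -0.02 to -0.13. At 2 mM, 47.5% of the calls with ChREBPβ were higher, and 33.2% with library totals, and at 11 mM the share went from 42.9% to 29.3%. It went from 46.9% to 33.4% for ChREBPβ 11 mM against GFP 2 mM and from 45.2% to 33.0% for ChREBPβ 2 mM against GFP 11 mM. Emp3 stayed higher and Pmp22 lower with ChREBPβ under each scaling tried.

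Glucose alone moved neither relative past the threshold, whether by edgeR or, in the 3 tests where it gave an adjusted p, by DESeq2. Of the 4 edgeR tests, Emp3 in ChREBPβ cells had an unadjusted p under 0.05 (0.0435). In GFP cells Emp3 differed by 0.27 ± 0.39 (adjusted p = 0.644, interval -0.55 to 1.08) and Pmp22 by -0.05 ± 0.09 (adjusted p = 0.724, interval -0.24 to 0.14). The background there was 10.2% of genes called higher and 10% lower. In ChREBPβ cells Emp3 differed by 0.63 ± 0.29 (adjusted p = 0.225) and Pmp22 by 0.05 ± 0.09 (adjusted p = 0.805), where 0.988% of genes were called higher and 2.88% lower. The Emp3 groups did not overlap there, but the share of all genes with such groups was not counted, so this adds nothing to the test.

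The interaction that chose Emp1 was not called in its relatives. For Emp3 it was 0.36 ± 0.49 (adjusted p = 0.749), with an interval of -0.66 to 1.39, and for Pmp22 it was 0.10 ± 0.13 (adjusted p = 0.725), with an interval of -0.17 to 0.38. Across all genes 1.56% had a called interaction above 0 and 4.74% below. A p over the threshold does not show that a gene lacks an interaction.

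Over the 12 libraries, log2 CPM of Emp1 and Emp3 correlated with r = 0.70, Emp1 and Pmp22 with r = -0.83, and Emp3 and Pmp22 with r = -0.68. These points share 4 groups and the scaling of each library, so the coefficients describe the steps between groups.

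The genes whose profile was most like that of Emp1 were Cilp2, Cpne9, Sh2d5, Polr1b, Fhod3, Col5a3, Ramp1, Blmh, Cyp4f1 and Ssfa2. They were picked by Pearson correlation with Emp1 over the 12 libraries among 10467 genes of at least 5 CPM on average, and r lay between 0.993 and 0.997. The next gene had r = 0.992, 538 genes exceeded 0.95, and ranking by Spearman correlation shared 2 of the 10 names. The list is thus a sample of a large set that steps up in the same order of groups.

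Cilp2, of the cartilage intermediate layer proteins of the extracellular matrix, was at 3.92, 31.1, 144 and 143 CPM in the groups from GFP 2 mM to ChREBPβ 11 mM. Cpne9, a copine that binds membranes with calcium, was at 2.73, 19.8, 55.8 and 64.1 CPM. Col5a3, a chain of collagen V, was at 0.400, 5.59, 19.0 and 25.4 CPM, and Ramp1, a partner of the receptor for calcitonin gene-related peptide, at 0.236, 2.59, 10.5 and 11.0 CPM. All 4 were lowest in GFP 2 mM and highest in the ChREBPβ groups, as Emp1 was. Col5a3 was also higher at 11 than at 2 mM glucose with ChREBPβ, by 0.42 on the log2 scale. For Cpne9 this difference was 0.20, short of the 1.2-fold minimum.

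The other similar genes had the same order over a narrower range. Sh2d5 was at 17.4, 46.5, 94.2 and 95.4 CPM, and Cyp4f1, a fatty acid hydroxylase, at 21.9, 47.0, 74.0 and 82.5 CPM. Blmh, the cysteine protease bleomycin hydrolase, went only from 123 to 139, 151 and 151 CPM, so a high r says nothing of the size of a change. Polr1b encodes a subunit of RNA polymerase I and Fhod3 a formin that assembles actin. Of the 9 genes with a window in the RefSeq table, 7 held a GC box in the same 250 bases, 1 (Blmh) the AP-1 site seen in Emp1, and 0 an E-box. Over all 33469 windows these shares were 30.5%, 4.05% and 5.59%. The shares among expressed genes, from which the 9 came, were not counted, so no trait of the 9 is read from these counts.

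**Figure D4:**
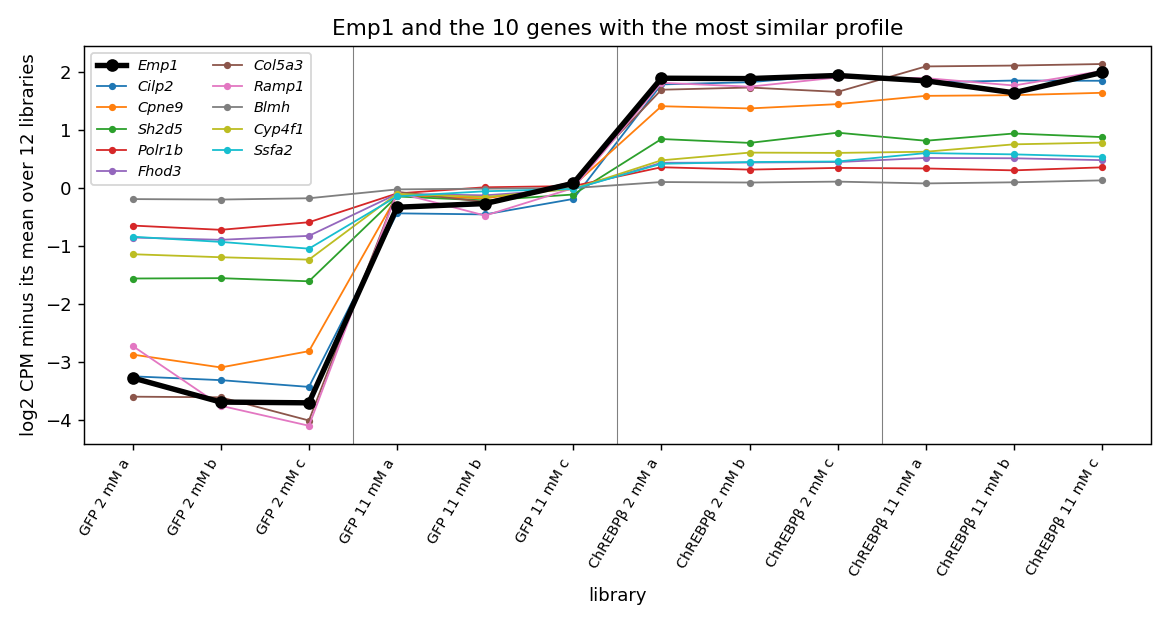
Log2 CPM of Emp1 (thick black line) and the 10 genes with the most similar profile, each centred on its mean over 12 libraries (y axis), by library and group (x axis). All 11 rise from GFP 2 mM to GFP 11 mM and again to the ChREBPβ groups, with Blmh the flattest.

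Other profiles stood beside the relatives. Setd4, Dpf2 and Hid1 were most like Emp3 with r between 0.931 and 0.938, and Rflnb, Entpd3 and Atp10a most like Pmp22 with r between 0.969 and 0.974. Rflnb was at 7.05, 6.99, 3.03 and 3.26 CPM, and Entpd3, an ectonucleotidase of β cells, at 173, 159, 122 and 124 CPM. Atp10a, a phospholipid flippase, was at 20.0, 21.6, 9.66 and 10.3 CPM. None of these 6 names was shared when the ranking used Spearman correlation.

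Other proteins of the same superfamily outside the claudins numbered 29 in the list, of which 18 were tested. With ChREBPβ at 2 mM, 8 were called lower and 0 higher, with a median log2 fold change of -0.33 beside -0.02 for all genes, of which 21% were called higher and 23.2% lower. An unadjusted p under 0.05 was reached by 3 in the higher direction, and DESeq2 called 0 of them. Without GFP 2 mM replicate c, 2 were called higher, and without ChREBPβ 2 mM replicate b or c, 1. Lhfpl2 fell by 1.01 ± 0.06 (adjusted p = 3.87e-11) and Tmem178b by 0.84 ± 0.07 (adjusted p = 7.85e-09). Perp, a death-associated target of p53 and named here after its values were seen, fell by 0.78 (adjusted p = 5.62e-12), from 159 to 92.9 CPM.

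The calcium channel gamma subunits, which include auxiliary proteins of AMPA receptors and were also named after their values were seen, gave further examples. Cacng2 fell by 0.53 (adjusted p = 5.33e-06) and Cacng6 by 0.60 (adjusted p = 1.58e-06). Lhfpl4, which assists inhibitory synapses, was 0.24 higher, short of the 1.2-fold minimum. At 11 mM, 7 of the 18 were called lower and 1 higher, Cacng4 by 0.32 (adjusted p = 6.52e-05), with a median of -0.12, beside 14.3% of all genes called higher and 19.1% lower. With library totals 0 were higher. Without GFP 11 mM replicate b or ChREBPβ 11 mM replicate c, 2 were higher. Glucose gave 3 calls lower in GFP cells (10% of all genes) and 1 in ChREBPβ cells (2.88% of all genes). It gave 0 calls higher in either (10.2% and 0.988% of all genes). The call in ChREBPβ cells was lost without any 1 of their 6 libraries. The interaction was called in 0 of 18 by edgeR and by DESeq2, and 3 had an unadjusted p under 0.05. Among all genes 1.56% had a called interaction above 0 and 4.74% below.

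Of 23 claudins, 9 were tested, and at 2 mM 1 was called higher and 2 lower with ChREBPβ, near the shares of all genes (21% and 23.2%). Cldn15, a pore-forming claudin, rose by 2.73 ± 0.10 (adjusted p = 7.64e-15), from 4.15 to 27.6 CPM in the means, and by 2.37 at 11 mM (adjusted p = 2.26e-14). It was also 0.46 ± 0.12 higher with glucose in GFP cells (adjusted p = 0.00442). Cldn1, a barrier claudin, fell by 1.42 ± 0.28 (adjusted p = 0.000222) and Cldn9 by 0.48 ± 0.07 (adjusted p = 9.11e-06). The median of the 9 was -0.27 at 2 mM and -0.33 at 11 mM, where again 1 was called higher and 2 lower (14.3% and 19.1% of all genes). Glucose gave 1 call higher in GFP cells, beside 10.2% of all genes called higher and 10% lower. Without GFP 11 mM replicate a 2 were higher, and without GFP 2 mM replicate a 1 was lower. The interaction was called in 0 of 9 by edgeR and by DESeq2, with 1 at an unadjusted p under 0.05. Of all genes 1.56% had a called interaction above 0 and 4.74% below. Without GFP 2 mM replicate c or GFP 11 mM replicate b, 1 claudin had one.

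Tetraspanins, which are unrelated in sequence but share the 4-span layout, split in both directions. Of 31 listed, 22 were tested, and at 2 mM 4 were called higher and 8 lower, with a median of -0.11, beside 21% and 23.2% of all genes. With library totals 2 were higher. Tspan15, which guides the protease ADAM10, rose by 1.86 ± 0.11 (adjusted p = 1.93e-11) and Tspan17 by 1.29 ± 0.05 (adjusted p = 2.24e-14). Tspan1 fell by 1.04 ± 0.10 (adjusted p = 2.54e-08) and Tspan18 by 0.81 ± 0.22 (adjusted p = 0.00362). At 11 mM 5 were called higher and 6 lower, beside 14.3% and 19.1% of all genes. The interaction was called in 0 of 22 by edgeR and by DESeq2, with 5 at an unadjusted p under 0.05. Of all genes, 1.56% had a called interaction above 0 and 4.74% below.

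Of 23 MARVEL-domain proteins, a further group with 4 membrane spans found in vesicles and tight junctions, 16 were tested. At 2 mM 3 were called higher and 5 lower (21% and 23.2% of all genes), with a median of -0.23. At 11 mM 3 were higher and 6 lower (14.3% and 19.1% of all genes). With library totals 8 were lower at 2 mM. Sypl1 rose by 0.80 ± 0.08 (adjusted p = 3.06e-08) and Syngr1 by 0.57 ± 0.06 (adjusted p = 8.63e-08). Pllp fell by 0.63 ± 0.08 (adjusted p = 1.34e-06) and Marveld2, a protein of tricellular junctions, by 0.55 ± 0.05 (adjusted p = 1.62e-08). Myadm was the 1 gene of all 6 lists with a called interaction, 0.50 (adjusted p = 0.00663), opposite in sign to that of Emp1. Called interactions above 0 made up 1.56% of all genes. Without GFP 11 mM replicate a, 2 MARVEL-domain genes had a called interaction.

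Described partners of the family numbered 13, of which 10 were tested, and at 2 mM 0 were called higher and 3 lower, beside 21% and 23.2% of all genes. In the higher direction 2 had an unadjusted p under 0.05, and DESeq2 called 0. Itga6, an integrin chain that binds laminin, fell by 0.75 ± 0.07 (adjusted p = 7.16e-09) and Itgav by 0.31 ± 0.07 (adjusted p = 0.000499). The median was -0.07 at 2 mM and -0.15 at 11 mM, where 1 was called lower (19.1% of all genes). Without ChREBPβ 2 mM replicate b, 1 was higher at 2 mM, and without GFP 11 mM replicate a or ChREBPβ 11 mM replicate a, 2 were lower at 11 mM. P2rx7, a channel described with the EMP proteins, had 6 counts in all libraries together and was not tested.

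Of 12 genes of Schwann cells and myelin, 6 were tested, with 2 called lower and 0 higher at 2 mM (23.2% and 21% of all genes) and 3 lower at 11 mM (19.1%). In the higher direction at 2 mM, 1 had an unadjusted p under 0.05, and DESeq2 called 0. Without GFP 2 mM replicate a, 1 was higher at 2 mM, and without GFP 11 mM replicate b or c or ChREBPβ 11 mM replicate b, 1 was lower at 11 mM. Cnp fell by 0.66 ± 0.06 (adjusted p = 3.93e-09). The median was -0.01 at 2 mM.

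**Figure D5:**
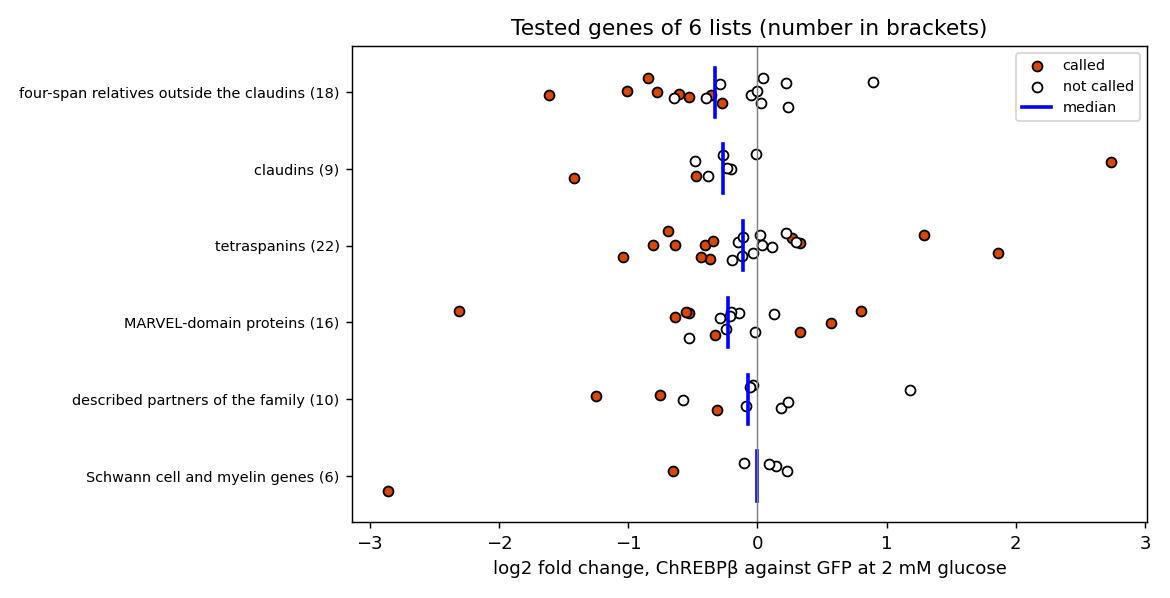
Log2 fold change of ChREBPβ against GFP at 2 mM glucose (x axis) for the tested genes of 6 lists (y axis, number tested in brackets), with called genes filled, others open, and the median of each list as a blue line. The 4-span relatives outside the claudins have 8 called genes, all below 0, and Cldn15 is the point farthest to the right.

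Markers of other cell types were measured beside these results, because fewer cells of a type and less RNA per cell cannot be told apart in bulk RNA. The summed level of 12 β-cell markers was 15353 to 17210 CPM in GFP 2 mM, 11696 to 12721 in GFP 11 mM, 6483 to 6612 in ChREBPβ 2 mM and 5525 to 5893 in ChREBPβ 11 mM. Ins1 carried most of the sum, at 11677, 8785, 4309 and 3605 CPM, and Slc2a2 went the other way, at 437, 489, 618 and 675 CPM. The sum was lower in the 3 groups with more Emp1 than in GFP 2 mM, and its part in the values of Emp1 was not tested. Of 5 markers of squamous or basal epithelium, where EMP1 is abundant, Krt5 and Krt14 were at 0 in all libraries, and the sum was 0.731 to 1.54 CPM over all groups.

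Fibroblast markers (6, led by Pdgfra) summed to 6.91 to 8.81 CPM in GFP 2 mM, 4.08 to 5.54 in GFP 11 mM, 3.8 to 5.51 in ChREBPβ 2 mM and 4.68 to 5.23 in ChREBPβ 11 mM, with Dcn and Lum at 0. Within that list Pdgfrb went up from 0.010 and 0.007 CPM in the GFP groups to 0.656 and 0.824 with ChREBPβ. Endothelial markers (4) summed to 1.33 to 3.09 CPM over all groups. Immune markers (4) summed to 0.268 to 0.656 CPM in GFP cells and 0.596 to 1.22 in ChREBPβ cells, with Ptprc at 0 throughout. Cd68 carried most of that sum, at 0.361, 0.383, 0.775 and 0.659 CPM from GFP 2 mM to ChREBPβ 11 mM, and Cd3e and Cd79a were near 0. Schwann markers (6) summed to 7.28 to 8.95 CPM, with Ncmap at 0, and the part of these lists in the changes of Pmp22 was not tested. In RefSeq, Pmp22 overlaps a long noncoding RNA gene, LOC134480805, and whether counting used strand is not stated.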

How the data were processed

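Total RNA of INS-1 832/13 cells was amplified (NuGEN Ovation) at a sequencing service before sequencing in paired ends, and the authors deposited whole-number counts per gene with no normalization. The submitters' processing notes name Rnor_6.0 and edgeR; the aligner and counter are not given in the sources used here. The authors' 4 columns of group means were not used. An entry without a gene name (0.0043% to 0.00601% of a library) was left out.

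Groups came from the labels. Genes passing edgeR's filterByExpr (14669) were scaled with TMM and all 12 libraries fitted in a quasi-likelihood model with group as factor (R 4.3.3, edgeR 4.0.16, limma 3.58.1). The 6 comparisons and the interaction were contrasts, with Benjamini-Hochberg adjustment over all genes. Standard errors are the log2 fold change divided by the square root of F. CPM uses TMM factors, and log2 CPM a prior count of 2. Each library was counted as a replicate. Replicates differed beyond sampling noise (chi-square per degree of freedom 3.06 to 16.6), which does not show that they came from independent cultures. The analysis was tested on simulated data.

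Alternatives were other scalings, filters, DESeq2 1.42.0, fewer groups, a replicate block and each library left out. The members and lists were chosen with earlier results of these data known. Named genes are the members, Txnip and Mlxipl, the 10 (Emp1) or 3 (the others) most correlated genes, and per list up to 2 called genes in each direction at 2 mM and up to 2 with a called interaction, of at least 1 CPM; others are marked. Upstream windows came from RefSeq (GRCr8). Plots used Python 3.11.15 and matplotlib 3.10.9.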

Additional observations from a re-analysis of the deposited data

Results flagged for a closer look

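Emp1 stood out by a glucose effect that differed between GFP and ChREBPβ cells, with a difference of -3.64 on the log2 scale. It was chosen on that value, so no p is given. The difference lay between -3.79 and -3.49 with any 1 library left out.

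Among the 6 lists, Myadm, a MARVEL-domain protein, also had glucose effects that differed between the viruses, by 0.50 (edgeR's quasi-likelihood test, adjusted p = 0.00663). It was at 18.0 CPM in GFP 2 mM, 14.6 in GFP 11 mM, 14.4 in ChREBPβ 2 mM and 16.4 in ChREBPβ 11 mM. Among all tested genes 1.56% had a called interaction above 0 and 4.74% below, so 1 call in 6 lists is no excess. Without GFP 2 mM replicate c, Myadm was no longer called for glucose in GFP cells (-0.22) or for ChREBPβ at 2 mM (-0.24). Its interaction stayed called with any 1 library left out (0.42 to 0.56). Groups of 3 libraries were too small to look for single outlying libraries.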

How the results depend on the processing

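With ChREBPβ, Emp1 and Emp3 stayed higher and Pmp22 lower under every alternative that gave a value, and Pmp22 stayed called in all of them except a minimum fold change of 2. Changes near 0 turned sign with 1 library left out: glucose in ChREBPβ cells for Emp1 (0.01 without ChREBPβ 11 mM replicate b) and Pmp22 (-0.01 without ChREBPβ 2 mM replicate a), and glucose in GFP cells for Emp3 (-0.04 without GFP 2 mM replicate a). DESeq2 gave no adjusted p for Emp3 in the glucose comparison of ChREBPβ cells and in the interaction. Emp3 at 2 mM became a called gene without GFP 2 mM replicate c (1.07, adjusted p = 0.0434), and its value ranged from 0.48 to 1.07 with 1 library left out. That raised the number of Emp3 and Pmp22 called at 2 mM from 1 to 2, the range being 1 to 2. A minimum fold change of 2 left 0 of them called at 2 mM, 1 at 11 mM, 1 for ChREBPβ 11 mM against GFP 2 mM and 0 for ChREBPβ 2 mM against GFP 11 mM. Requiring at least 10 counts in every library left 1 at 11 mM and 1 for ChREBPβ 11 mM against GFP 2 mM, because Emp3 was then filtered out.

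A replicate block changed no call of the members, and all genes called at 2 mM numbered 6449 with it and 6476 without. Whether the letters pair libraries could not be told from these values, as all correlations of deviations were small. Those of the same letter lay between -0.114 and 0.064, and those of different letters between -0.087 and 0.159. Of 12 libraries, 6 correlated best with their own letter. Ranking by Spearman correlation shared 2, 0 and 0 of the genes most like Emp1, Emp3 and Pmp22. Counts over the lists, whose alternatives were added after seeing the data, moved by over 1.5 times in 104 of 1248 cases. Named list and similar genes gained a call in 17 cases and lost one in 25, and reversed in 0. Levels per transcript length were not run, as transcript lengths were not used here. Depth limits Emp2 and Emp3, which rest on 2 and 317 counts.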
